A study of Mus musculus with 6 samples.

Results

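The collagens and the matrix genes of mesenchyme were followed in dorsal midbrains of E10.5 mouse embryos with a conditional deletion of Ezh2, the histone methyltransferase of Polycomb repressive complex 2. Members were taken by gene name, under a rule set with earlier results of these data known. They are every probe set whose only gene symbol is a collagen chain (Col, a number, a and a number), together with Lum, Dcn, Bgn, Fbln1, Fbln2, Fn1 and Postn. The rule found 96 probe sets of 49 genes, of 34945 probe sets of 18193 genes that carry a single symbol on the array, and each gene was read from the probe set with the highest mean. Of these members, 42 are collagens and 7 are other matrix genes.

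Collagens are secreted proteins whose alpha chains wind around each other into long helices. Fibrillar collagens assemble into the fibres of connective tissue, type IV collagens form the sheet-like network of basement membranes, and the other types bind, link or anchor these structures. In the embryonic head they are made mainly by mesenchyme, by the forming meninges and by vessels, whereas the neuroepithelium rests on a basement membrane rich in type IV collagen, laminin and nidogen. Cranial mesenchyme comes in part from the neural crest, in which Wnt1-Cre is also active.

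The 3 Ezh2 cko arrays hold RNA of embryos with the Wnt1-Cre transgene and Ezh2[SET]lox on both chromosomes. The 3 control arrays are labelled WT for genotype, while the methods describe littermates that carry floxed Ezh2 without Cre, or Cre with a wild-type Ezh2 allele. Both groups are of C57BL/6 background and come from 2 litters each, with no record of which array belongs to which litter. Recombination is driven in the Wnt1 domain of the midbrain and in neural crest. The paper describes loss of the protein from E10.5 onwards, and at a later stage as complete caudally but partial rostrally. Dorsal midbrains were dissected and no sorting of cells is described, so a lower level from fewer cells of a type and a lower level from less RNA per cell cannot be told apart. Each sample was measured on 1 Affymetrix array, and p-values measure the spread between these 6 samples only.

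Values are log2 signals after robust multi-array average (RMA) summarisation, so a difference of 1 means a doubling, and signals are compared only within a probe set. The probe set for Ezh2 read 11.79, 11.74 and 11.72 on the Ezh2 cko arrays, against 11.69, 11.76 and 11.66 on the control arrays. The sources used here do not place this probe set relative to the deleted SET part, so it does not check the labels. Control replicate 1 stood apart from the other arrays: Xist, the RNA of the inactive X chromosome, read 11.70 there and 5.13 to 5.36 elsewhere. The Y-linked gene Kdm5d read 3.03 on that array and 8.97 to 9.25 on the others. By these transcripts control replicate 1 reads as female and every other array, all 3 Ezh2 cko arrays included, as male. The labels give no sex. The litter of control replicate 1 is not given, and for some of the members that it moves the value without it is given as well. Over all 18193 genes, 54 rose and 1 fell at an adjusted p under 0.05 (limma, Benjamini-Hochberg over all probe sets).

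None of the 49 members passed that test in either direction, against a background of 0.297% of all genes that rose and 0.0055% that fell. The lowest adjusted p of a member was 0.193, for Col8a2. At an unadjusted p under 0.05, 7 members were higher in Ezh2 cko midbrains, which is 14.3% of the members against 6.12% of all genes, and 0 were lower, against 2.75% of all genes. With Ezh2 cko replicate 3 left out the count of higher members was 4. The 7 on all arrays were Col8a2, Fbln2, Lum, Col4a5, Bgn, Col1a2 and Dcn. Of these, 3 were among the 42 collagens and 4 among the 7 other matrix genes. The unpaired t-test of the methods gave 4 members higher and 1 lower at an unadjusted p under 0.05, and no gene of the array past the adjusted p. At that unadjusted p the share of all genes was not counted for this test or without Ezh2 cko replicate 3. At the threshold that the methods set for the arrays (a log2 change of at least 0.81 either way with p of at most 0.01) the count of members was 0, against 0.407% of all genes. Every Ezh2 cko array lay above every control array for 6 members, or 12.2%, against 7.52% of all genes. The reverse order held for 2 members, or 4.08%, against 7.88%.

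Across the members the median log2 difference was 0.03, beside -0.02 over all genes, and single members ran from -0.20 for Col18a1 to 0.79 for Col8a2. The difference was positive for 29 of the 49 members, or 59.2%, against 43.0% of all genes. The 42 collagens had a median of 0.01, and the 7 other matrix genes a median of 0.36. The 95% intervals of single members (limma, not adjusted for the number of genes) lay within a log2 change of 0.81 either way for 46 of the 49. Those of Col8a2, Fbln2 and Col1a1 reached beyond it on the higher side. Standard errors of the differences ran from 0.07 to 0.24 with a median of 0.12, the largest being that of Col1a1, and the number of arrays limits this precision.

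**Figure D1:**
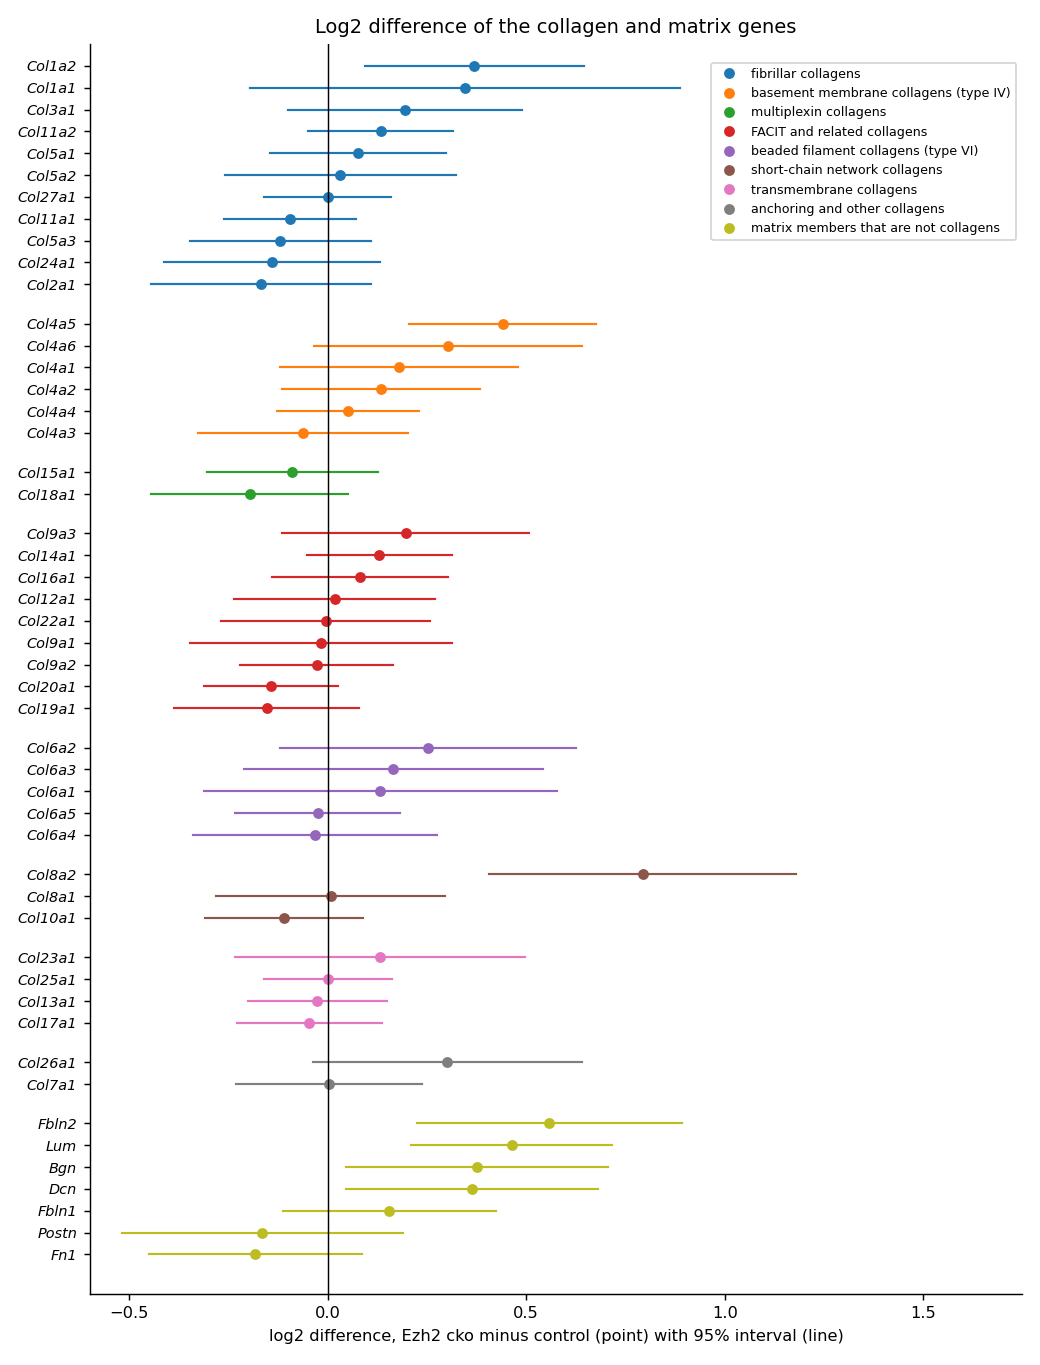
Log2 difference, Ezh2 cko minus control, of each of the 49 members (points) with its 95% interval (lines), grouped by the role of the gene; the vertical line marks no difference. Intervals of 7 members lie wholly above 0, those of Col8a2, Fbln2, Lum, Col4a5, Bgn, Col1a2 and Dcn, and no interval lies wholly below 0.

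**Figure D2:**
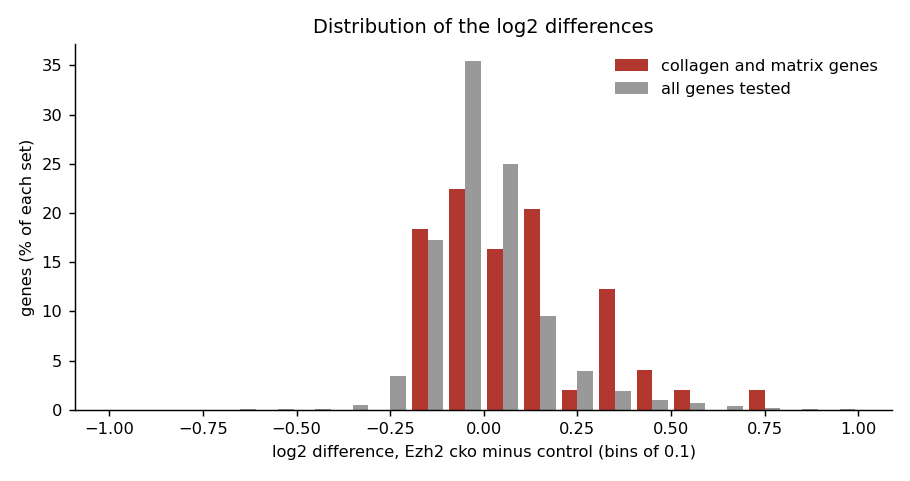
Share of genes (vertical axis, percent of each set) in each bin of log2 difference, Ezh2 cko minus control (horizontal axis, bins of 0.1), for the 49 members and for all 18193 genes. The members span -0.20 to 0.79 with a median of 0.03, and the median of all genes is -0.02.

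The promoters of members that stood at the upper end, or that lie head to head with another member, are shown here because the values below return to them. RefSeq promoter windows (250 bases before to 50 bases after the start of the gene, build GRCm38.p6) were matched by symbol to 37 of the 49 members. Capitals mark matches on either strand to TATAAA, to CCAAT or to GGGCGG, the core of the GC box. Col8a2 lies at chr4:126286544-126286843 on the plus strand, Fbln2 at chr6:91212514-91212813 on the plus strand and Col1a2 at chr6:4505368-4505667 on the plus strand. The type IV pair of the X chromosome lies at chrX:141475169-141475468 on the plus strand (Col4a5) and chrX:141474027-141474326 on the minus strand (Col4a6). The pair of chromosome 8 lies at chr8:11312777-11313076 on the minus strand (Col4a1) and chr8:11312555-11312854 on the plus strand (Col4a2).
Col8a2: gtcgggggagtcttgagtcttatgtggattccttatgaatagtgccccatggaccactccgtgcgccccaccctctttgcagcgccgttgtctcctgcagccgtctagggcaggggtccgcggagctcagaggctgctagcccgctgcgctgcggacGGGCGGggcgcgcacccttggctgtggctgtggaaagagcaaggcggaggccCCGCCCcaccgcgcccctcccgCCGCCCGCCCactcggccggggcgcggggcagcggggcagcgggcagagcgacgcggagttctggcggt
Fbln2: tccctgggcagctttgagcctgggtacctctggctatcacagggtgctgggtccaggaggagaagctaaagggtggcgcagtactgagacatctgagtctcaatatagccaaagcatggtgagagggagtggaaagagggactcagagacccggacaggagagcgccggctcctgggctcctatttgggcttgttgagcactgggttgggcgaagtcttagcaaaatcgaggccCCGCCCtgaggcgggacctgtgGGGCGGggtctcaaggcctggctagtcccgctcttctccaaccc
Col1a2: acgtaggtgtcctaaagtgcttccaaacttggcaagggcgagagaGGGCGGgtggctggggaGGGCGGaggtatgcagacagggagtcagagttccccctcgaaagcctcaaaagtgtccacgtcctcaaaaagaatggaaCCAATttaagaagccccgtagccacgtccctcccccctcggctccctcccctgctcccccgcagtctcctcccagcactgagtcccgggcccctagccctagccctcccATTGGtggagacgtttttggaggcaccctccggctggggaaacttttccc
Col4a5: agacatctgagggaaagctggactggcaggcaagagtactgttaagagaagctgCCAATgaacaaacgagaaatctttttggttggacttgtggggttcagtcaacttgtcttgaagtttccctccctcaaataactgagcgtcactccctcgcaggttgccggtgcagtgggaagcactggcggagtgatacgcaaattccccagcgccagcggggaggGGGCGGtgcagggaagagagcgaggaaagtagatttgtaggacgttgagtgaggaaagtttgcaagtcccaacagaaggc
Col4a6: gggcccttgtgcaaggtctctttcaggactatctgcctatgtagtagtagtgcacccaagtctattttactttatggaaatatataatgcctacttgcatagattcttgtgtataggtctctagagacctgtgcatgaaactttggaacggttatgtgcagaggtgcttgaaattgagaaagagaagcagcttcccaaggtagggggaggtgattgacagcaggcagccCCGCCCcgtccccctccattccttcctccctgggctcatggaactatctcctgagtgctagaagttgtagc
Col4a1: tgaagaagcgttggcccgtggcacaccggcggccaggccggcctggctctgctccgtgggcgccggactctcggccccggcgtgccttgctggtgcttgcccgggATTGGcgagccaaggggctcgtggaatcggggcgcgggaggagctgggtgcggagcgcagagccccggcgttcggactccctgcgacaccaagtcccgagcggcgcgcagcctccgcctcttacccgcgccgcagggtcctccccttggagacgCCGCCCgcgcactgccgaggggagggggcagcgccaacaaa
Col4a2: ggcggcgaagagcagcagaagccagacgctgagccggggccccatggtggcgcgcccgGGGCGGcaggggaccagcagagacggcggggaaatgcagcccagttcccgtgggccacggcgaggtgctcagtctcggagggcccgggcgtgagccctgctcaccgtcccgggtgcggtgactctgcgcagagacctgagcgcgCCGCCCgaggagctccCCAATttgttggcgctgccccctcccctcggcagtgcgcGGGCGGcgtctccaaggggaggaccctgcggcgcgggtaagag

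GGGCGG or its reverse complement was found in 25 of the 42 member windows, or 59.5%, against 35.7% of 32851 windows of all genes. CCAAT was found in 14 windows of members, or 33.3%, against 37.4% of all, and TATAAA in 6 windows, or 14.3%, against 13.6%. The Col8a2 window held 4 matches to GGGCGG and 32 CG dinucleotides, and the median was 10.5 CG dinucleotides over member windows and 7 over all windows. Col4a1 and Col4a2 start 21 bases apart on opposite strands, so that 78 bases are shared by their windows. Col4a5 and Col4a6 start 1343 bases apart, also on opposite strands. A match describes the letters of the window and does not show that a factor binds there.

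Among the fibrillar collagens, which make the fibres of skin, tendon, bone and cartilage, 0 of 11 chains passed the test, 6 differences were positive and the median was 0.03. Col1a2, a chain of type I collagen, read 11.97, 11.98 and 12.20 in Ezh2 cko midbrains, against 11.43, 11.81 and 11.80 in control midbrains. All Ezh2 cko arrays lay above all control arrays, and the gap was widest to control replicate 1. The log2 difference was 0.37 ± 0.12 (SE), or 1.29-fold, with an unadjusted p of 0.015 and an adjusted p of 0.489. Without control replicate 1 it was 0.24. A further probe set for Col1a2 with a high signal read 10.02, 9.92 and 10.26 in Ezh2 cko midbrains, against 9.57, 10.01 and 9.87 in control midbrains, and there the groups overlapped.

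Col1a1, the other chain of type I collagen, read 7.76, 7.83 and 8.41 in Ezh2 cko midbrains, against 7.15, 8.0 and 7.82 in control midbrains. The groups overlapped, with Ezh2 cko replicate 3 the highest and control replicate 1 the lowest. The difference was 0.35 with an adjusted p of 0.803, and it was 0.09 without control replicate 1. A further, dimmer probe set for Col1a1 read 6.37, 6.29 and 6.36 in Ezh2 cko midbrains, against 5.93, 6.20 and 6.19 in control midbrains. There the groups did not overlap, with a difference of 0.24 (adjusted p = 0.615). Col3a1, whose fibres run with type I in soft tissue, read 12.68, 12.63 and 12.93 in Ezh2 cko midbrains, against 12.30, 12.73 and 12.62 in control midbrains. Ezh2 cko replicate 3 was again the highest array and control replicate 1 the lowest. The difference was 0.19 (adjusted p = 0.794), or 0.07 without control replicate 1. A further probe set for Col3a1 read 10.07, 10.06 and 10.44 in Ezh2 cko midbrains, against 9.92, 10.37 and 10.34 in control midbrains. Its groups overlapped, and its difference was -0.02.

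Chains of type V collagen help to start fibrils and set their width. Col5a1 read 8.94, 8.91 and 8.89 in Ezh2 cko midbrains, against 8.64, 8.93 and 8.95 in control midbrains. Apart from control replicate 1, which was the lowest, these values lay close together. Col5a2 read 10.25, 10.44 and 10.78 in Ezh2 cko midbrains, against 10.48, 10.42 and 10.46 in control midbrains. The Ezh2 cko arrays lay on both sides of the control arrays for this chain. The differences were 0.08 for Col5a1, 0.03 for Col5a2 and -0.12 for Col5a3, another chain of the same type. Further, dimmer probe sets of 2 of these chains had every Ezh2 cko array below every control array. That of Col5a1 read 6.27, 5.99 and 6.04 in Ezh2 cko midbrains, against 6.41, 6.40 and 6.30 in control midbrains, a difference of -0.27 (adjusted p = 0.542). That of Col5a3 had a difference of -0.18 (adjusted p = 0.603).

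Col2a1, the main collagen of cartilage, read 9.60, 9.21 and 9.52 in Ezh2 cko midbrains, against 9.55, 9.78 and 9.51 in control midbrains. The groups overlapped and the difference was -0.17 (adjusted p = 0.816). Col11a1, a minor chain that copolymerises with type II collagen, read 8.38, 8.41 and 8.29 in Ezh2 cko midbrains, against 8.46, 8.46 and 8.45 in control midbrains. All Ezh2 cko arrays lay below all control arrays, by a difference of only -0.09 (adjusted p = 0.827). On a further probe set for Col11a1 the groups overlapped and the difference was 0.09, so the direction was not shared. The remaining fibrillar chains gave differences of -0.14 for Col24a1, 0.00 for Col27a1 and 0.13 for Col11a2.

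Type IV collagens, the network of basement membranes, had a median of 0.16, with 5 of 6 differences positive and 0 past the adjusted p, and a median of 0.04 without control replicate 1. Col4a5, a chain of specialised basement membranes that is mutated in human Alport syndrome, read 10.28, 9.996 and 10.30 in Ezh2 cko midbrains, against 9.84, 9.64 and 9.76 in control midbrains. The groups did not overlap, and the smallest gap was that between Ezh2 cko replicate 2 and control replicate 1. The difference was 0.44 ± 0.10 (SE), or 1.36-fold, with an unadjusted p of 0.0024 and an adjusted p of 0.252. Its further probe set read 8.44, 8.06 and 8.17 in Ezh2 cko midbrains, against 8.08, 7.85 and 7.88 in control midbrains. On that probe set the lowest Ezh2 cko array lay just under the highest control array.

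Col4a6, the neighbour that starts head to head with Col4a5, read 7.97, 7.39 and 7.53 in Ezh2 cko midbrains, against 7.43, 7.37 and 7.18 in control midbrains. Ezh2 cko replicate 1 was the highest array, and the groups overlapped. The difference was 0.30 (adjusted p = 0.711), or 0.13 without Ezh2 cko replicate 1. Both genes are X-linked, and the array with Xist is among the controls. Without that control array the differences were 0.49 for Col4a5 (adjusted p = 0.374) and 0.36 for Col4a6 (adjusted p = 0.818).

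Col4a1 and Col4a2, the chains found in nearly all basement membranes and the other head-to-head pair, differed less. Col4a1 read 11.44, 11.34 and 11.50 in Ezh2 cko midbrains, against 10.95, 11.48 and 11.31 in control midbrains. Col4a2 read 9.96, 9.82 and 10.01 in Ezh2 cko midbrains, against 9.58, 9.91 and 9.90 in control midbrains. In both, control replicate 1 was well below the other 5 arrays, which were interleaved. The differences were 0.18 for Col4a1 and 0.13 for Col4a2, and both were close to 0 without that array, at 0.03 and 0.02. Col4a3 and Col4a4, chains of the mature kidney and lung, lay among the dimmest 25% of all probe sets (a mean log2 signal under 4.27), where RMA values do not tell a low level from none. The other members there were Col8a2, Col6a5, Col19a1 and Col24a1, 6 in all, and the median over the 43 brighter members was 0.08.

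Across the 8 pairs of members that follow each other along a chromosome in RefSeq with no other protein-coding gene between them, both differences had the same sign in 7, or 87.5%, against 52.2% of 14183 such pairs of all genes. The exception was Col4a4 and Col4a3 (0.05 and -0.06), both among the dimmest 25%. Among the pairs with the same sign, Col9a1 and Col19a1 (-0.02 and -0.15) and Col6a5 and Col6a4 (-0.03 and -0.03) also include a gene of that 25%. The count was 6, or 75.0%, without control replicate 1, against 52.4% of such pairs of all genes. Without that array Col6a2 and Col6a1 (0.08 and -0.05) and Col6a5 and Col6a4 (-0.04 and 0.05) had opposite signs. Col4a4 and Col4a3 (0.05 and 0.03) then had the same sign. On all arrays Col6a2 and Col6a1 had differences of 0.25 and 0.13, and Dcn and Lum of 0.36 and 0.46.

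Type VI collagens, which form beaded filaments around mesenchymal cells, had a median of 0.13 over the 5 chains measured, with 3 positive. Col6a2 read 8.40, 8.45 and 8.79 in Ezh2 cko midbrains, against 7.94, 8.50 and 8.44 in control midbrains. Ezh2 cko replicate 3 was the highest array and control replicate 1 the lowest, with the other 4 close together. The difference was 0.25 (adjusted p = 0.792). Col6a1 and Col6a3 had the same lowest array, with differences of 0.13 and 0.17, which were -0.05 and -0.03 without it. The median of the type was -0.03 without control replicate 1, on the other side of 0. Col6a6 was not analysed here.

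**Figure D3:**
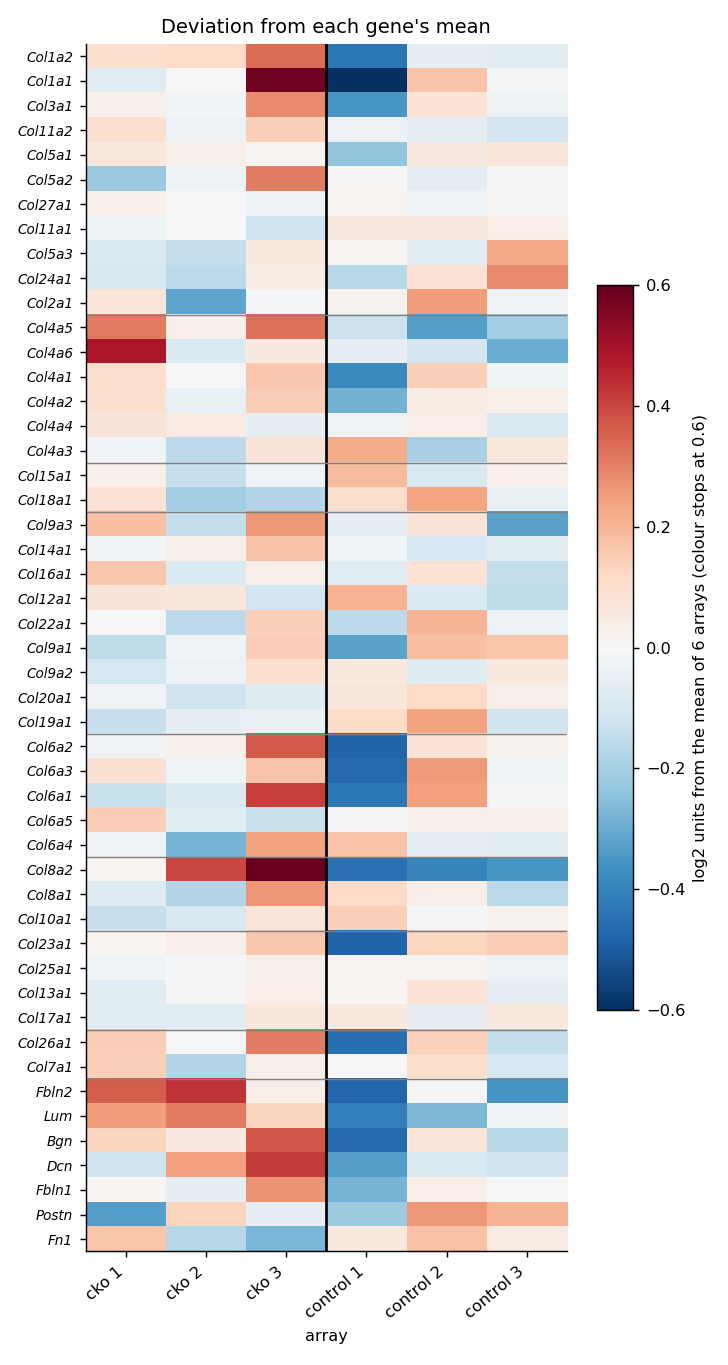
Deviation of each member (down the page, grouped by role) from its own mean over the 6 arrays, in log2 units by colour, on the Ezh2 cko arrays (left of the line) and the control arrays (right of it). Control replicate 1 holds the lowest value of 19 of the 49 members and Ezh2 cko replicate 3 the highest of 23.

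Short-chain collagens form hexagonal networks, and Col8a2, a chain of type VIII collagen of the corneal and vascular matrix, had the largest difference of all members. It read 3.96, 4.35 and 4.73 in Ezh2 cko midbrains, against 3.50, 3.55 and 3.6 in control midbrains. The groups did not overlap, and the control arrays lay close together while the Ezh2 cko arrays were spread out. The difference was 0.79 ± 0.17 (SE), or 1.73-fold, with an unadjusted p of 0.0013 and an adjusted p of 0.193. The gene has a single probe set, whose mean lies among the dimmest 25%, and its difference lies just under the 0.81 that the methods require. Leaving out Ezh2 cko replicate 1 gave a difference of 0.99 (adjusted p = 0.0617) and leaving out Ezh2 cko replicate 3 one of 0.60 (adjusted p = 0.318). Its partner chain Col8a1 read 4.88, 4.78 and 5.22 in Ezh2 cko midbrains, against 5.07, 4.99 and 4.80 in control midbrains, a difference of 0.01. Col10a1, the short-chain collagen of hypertrophic cartilage, had a difference of -0.11.

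Multiplexins carry chains of glycosaminoglycan and sit in basement membranes, and both were lower in the Ezh2 cko mean without passing the test. Col18a1, from which endostatin is cut, read 10.24, 9.95 and 9.98 in Ezh2 cko midbrains, against 10.26, 10.39 and 10.11 in control midbrains. Its Ezh2 cko replicates 2 and 3 lay below all control arrays, whereas Ezh2 cko replicate 1 lay among them. The difference was -0.20 with an unadjusted p of 0.107 and an adjusted p of 0.752. A further probe set read 9.09, 8.96 and 9.0 in Ezh2 cko midbrains, against 9.24, 9.23 and 9.14 in control midbrains, with no overlap. Col15a1 had a difference of -0.09.

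Collagens that decorate fibrils without forming them (FACIT and related types) had a median of -0.01 over 9 genes, from -0.15 for Col19a1 to 0.20 for Col9a3. Col20a1 read 5.93, 5.83 and 5.88 in Ezh2 cko midbrains, against 6.02, 6.07 and 5.98 in control midbrains. All Ezh2 cko arrays lay below all control arrays, and the difference was -0.14 (adjusted p = 0.728). Col19a1 read 4.09, 4.18 and 4.19 in Ezh2 cko midbrains, against 4.34, 4.47 and 4.11 in control midbrains, where control replicate 3 lay among the Ezh2 cko arrays. For Col14a1 all Ezh2 cko arrays lay above all control arrays, by a difference of 0.13.

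The 4 transmembrane collagens, which span the cell surface, ran from -0.05 for Col17a1 to 0.13 for Col23a1, which was at -0.07 without control replicate 1. Of the 2 remaining chains, Col26a1 read 8.03, 7.88 and 8.19 in Ezh2 cko midbrains, against 7.43, 8.02 and 7.74 in control midbrains. The groups overlapped and the difference was 0.30 (adjusted p = 0.712), or 0.15 without control replicate 1. Col7a1, the anchoring fibril of skin, had a difference of 0.00.

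The matrix members that are not collagens had a higher median, 0.36, with 5 of 7 differences positive, against 43.0% of all genes. At an unadjusted p under 0.05, 4 were higher, against 6.12% of all genes, though 0 passed the adjusted p. With control replicate 1 left out the median was 0.24, and 2 were higher at that unadjusted p, against 4.88% of all genes. Lum, a small leucine-rich proteoglycan that binds collagen fibrils, read 11.02, 11.08 and 10.90 in Ezh2 cko midbrains, against 10.36, 10.50 and 10.75 in control midbrains. The groups did not overlap, and the closest arrays were Ezh2 cko replicate 3 and control replicate 3. The difference was 0.46 ± 0.11 (SE), or 1.38-fold, with an unadjusted p of 0.0027 and an adjusted p of 0.260. Leaving out control replicate 1 gave 0.37.

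Dcn, the related proteoglycan next to Lum on the chromosome, read 6.20, 6.57 and 6.74 in Ezh2 cko midbrains, against 5.99, 6.23 and 6.20 in control midbrains. Ezh2 cko replicate 1 lay level with the upper control arrays. Bgn, another proteoglycan of this class and X-linked, read 9.64, 9.56 and 9.88 in Ezh2 cko midbrains, against 9.04, 9.58 and 9.34 in control midbrains. Control replicate 2 lay just above the lowest Ezh2 cko array. The differences were 0.36 for Dcn (adjusted p = 0.589) and 0.38 for Bgn (adjusted p = 0.594), and without control replicate 1 they were 0.29 and 0.24.

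Fbln2, a glycoprotein of elastic fibres and basement membranes, read 7.98, 8.05 and 7.65 in Ezh2 cko midbrains, against 7.14, 7.61 and 7.26 in control midbrains. The groups did not overlap, but Ezh2 cko replicate 3 and control replicate 2 were almost level. The difference was 0.56 ± 0.15 (SE), or 1.47-fold, with an unadjusted p of 0.0045 and an adjusted p of 0.329. It was 0.46 without control replicate 1. Fbln1, a related fibulin, read 9.36, 9.30 and 9.62 in Ezh2 cko midbrains, against 9.07, 9.39 and 9.35 in control midbrains, where the groups overlapped with a difference of 0.16, or 0.06 without control replicate 1.

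Fn1, the fibronectin of the early embryonic matrix, read 10.88, 10.54 and 10.44 in Ezh2 cko midbrains, against 10.77, 10.89 and 10.76 in control midbrains. Ezh2 cko replicates 2 and 3 lay below all control arrays and replicate 1 among them, and the difference was -0.18 (adjusted p = 0.792), or -0.31 without Ezh2 cko replicate 1 and -0.09 without Ezh2 cko replicate 3. Its further, dimmer probe set read 4.99, 5.04 and 5.13 in Ezh2 cko midbrains, against 4.61, 4.39 and 5.27 in control midbrains, so the direction was not shared by both. Postn, the periostin of periosteum and heart valves, read 6.30, 6.76 and 6.58 in Ezh2 cko midbrains, against 6.41, 6.89 and 6.83 in control midbrains. The groups overlapped, with a difference of -0.16 (adjusted p = 0.860), or -0.32 without control replicate 1 and -0.04 without Ezh2 cko replicate 1. For 32 members the array holds further probe sets, 47 in all, of which 30 had the sign of the one used and 0 passed the adjusted p.

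**Figure D4:**
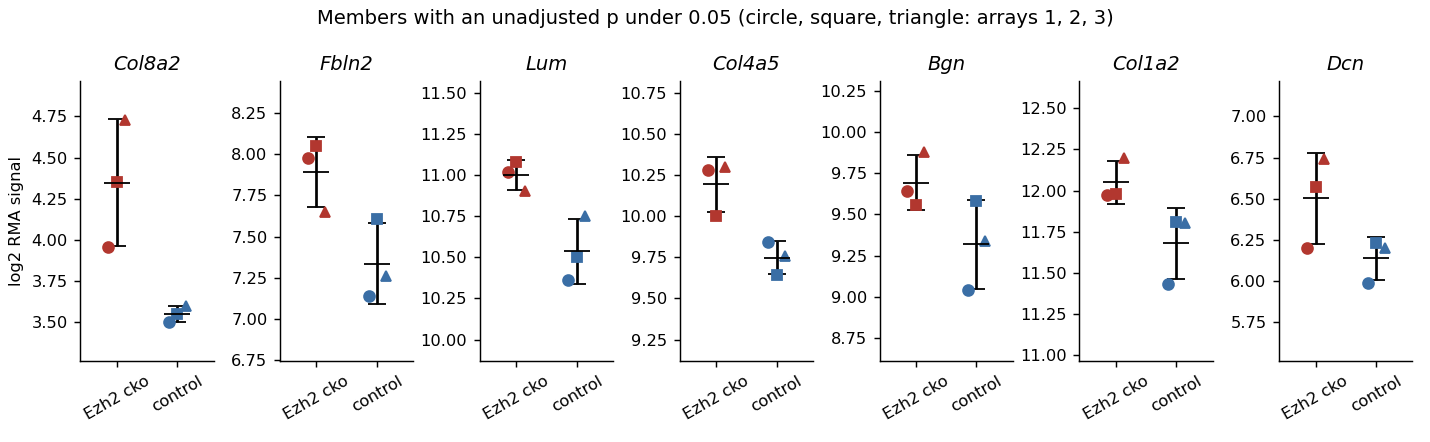
Log2 RMA signal on each array (points, with the mean and SD as bars) of the 7 members with an unadjusted p under 0.05, Ezh2 cko left of control, on axes of equal length but different position. Groups do not overlap for Col8a2, Fbln2, Lum, Col4a5 and Col1a2 and overlap for Bgn and Dcn, and no adjusted p is below 0.193.

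Control replicate 1 stood at the low end of many members. It held the lowest value of 19 members, or 38.8%, while over all genes it held the lowest value of 20.5%. Ezh2 cko replicate 3 held the highest value of 23 members, or 46.9%, and of 16.6% of all genes. Without control replicate 1, 5 members (10.2%) were higher at an unadjusted p under 0.05, against 4.88% of all genes. By the same test 1 member (2.04%) was lower, against 2.36%. The median of the members without that array was 0.02, beside -0.01 over all genes. Positive differences were found for 28 of the 49 members, or 57.1%, against 45.0% of all genes.

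Genes that process collagen chains were measured for 26 of 29 listed, and 0 passed the adjusted p. Their median was 0.09 with 20 positive, against 43.0% of all genes. At an unadjusted p under 0.05, 7 were higher and 0 lower, against 6.12% and 2.75% of all genes. Lox, which oxidises lysines of collagen and elastin for crosslinking, read 6.63, 6.78 and 6.70 in Ezh2 cko midbrains, against 5.85, 6.34 and 6.16 in control midbrains. All Ezh2 cko arrays lay above all control arrays, with a difference of 0.59 (adjusted p = 0.181). Loxl1, an oxidase of the same family, read 6.74, 6.68 and 7.20 in Ezh2 cko midbrains, against 5.98, 6.48 and 6.21 in control midbrains. It too showed no overlap, with a difference of 0.65 (adjusted p = 0.302). Adamts3, a protease that trims procollagen, had a difference of 0.37 (adjusted p = 0.427). Without control replicate 1 the difference of Lox was 0.46, that of Loxl1 was 0.53 and the median of the list was 0.10. When all probe sets of a gene were averaged, Lox came to 0.26 and Loxl1 to 0.35.

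Collagen receptors, 6 of 7 listed, had differences from 0.00 to 0.27, with Itga1, an integrin chain, the highest, and Ddr2 and Ddr1, the discoidin receptor kinases, at 0.25 and 0.17. Without control replicate 1 these were 0.08, 0.07 and 0.14, in that order of naming. Laminins and other basement membrane genes, 14 of 15 listed, had a median of 0.07. At an unadjusted p under 0.05, 2 were higher, against 6.12% of all genes. These were Nid1, the nidogen that links laminin to type IV collagen, at 0.30, and Lamb1, a laminin chain, at 0.28, and Lama4, the laminin chain of vessels, was at 0.24. Leaving out control replicate 1 gave 0.18 for Nid1, 0.26 for Lamb1 and 0.12 for Lama4. Remodelling genes, 11 of 12 listed, had a median of 0.17. Timp3, an inhibitor of matrix proteases bound to the matrix, read 8.26, 8.36 and 7.89 in Ezh2 cko midbrains, against 7.53, 7.76 and 7.72 in control midbrains. The groups did not overlap, with a difference of 0.50 (adjusted p = 0.326). The membrane protease Mmp14 and the secreted protease Mmp11 had differences of 0.32 and 0.31. No gene of these 3 lists passed the adjusted p.

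Markers of the cell types that the dissected tissue can hold were read beside the members. Of 14 mesenchyme markers 0 passed the adjusted p, 11 differences were positive and the median was 0.17. Their mean signal was 7.51, 7.55 and 7.63 on the Ezh2 cko arrays, against 7.18, 7.54 and 7.46 on the control arrays, so that control replicate 1 was again the lowest. It held the lowest value of 10 of the 14 markers, and without it their median was 0.01. Named after its values were seen, Prrx1, a transcription factor of limb and head mesenchyme, had the largest positive difference at 0.66 (adjusted p = 0.082), and Foxc2 the largest negative one at -0.39. Another probe set of Prrx1 is on the paper's gene list, higher in Ezh2 cko midbrains at the threshold of the methods. Neuron markers had the same arrays at their extremes: all 10 differences were positive with a median of 0.36, and their mean signal was 10.65, 10.91 and 11.12 on the Ezh2 cko arrays, against 10.30, 10.63 and 10.69 on the control arrays. Control replicate 1 held the lowest value of 9 of them and Ezh2 cko replicate 3 the highest of 9, and the median without control replicate 1 was 0.23. The part of mesenchyme, of neurons or of control replicate 1 in the members' differences was not tested.

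Medians were 0.06 for 10 endothelium markers, 0.08 for 6 pericyte markers, 0.03 for 6 cartilage markers and -0.03 for 8 neuroepithelium markers, none of which passed the adjusted p. Single markers lay far from these medians. Cnmd, the chondromodulin of cartilage, read 5.77, 5.99 and 6.58 in Ezh2 cko midbrains, against 5.04, 5.23 and 5.55 in control midbrains, with no overlap. Its difference of 0.84 (unadjusted p = 0.0031, adjusted p = 0.276) met the threshold of the methods. Among the neuroepithelium markers, Fabp7, a fatty acid binding protein of radial glia, was at 0.49 and Sox3, a transcription factor of progenitors, at -0.44, both without overlap between the groups. The 4 midbrain genes Otx2, En1, En2 and Pax7 had signals between 7.98 and 12.63 on all arrays. All 4 differences were positive, with a median of 0.13, and every Ezh2 cko array lay above every control array for En1 (0.37, adjusted p = 0.520) and En2 (0.17, adjusted p = 0.712). The 7 surface epithelium markers had a median of 0.09 with 4 differences positive. Of these Epcam and Cdh1, adhesion proteins of epithelia, rose by 1.33 and 0.77 (adjusted p = 0.0037 and 0.017). The keratins went both ways without passing: Krt18 and Krt8 were at 0.42 and 0.09, Krt5 and Krt14 at -0.11 and -0.15. The genes singled out among these markers were named after their values were seen, and their part in the members' differences was not tested.

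**Figure D5:**
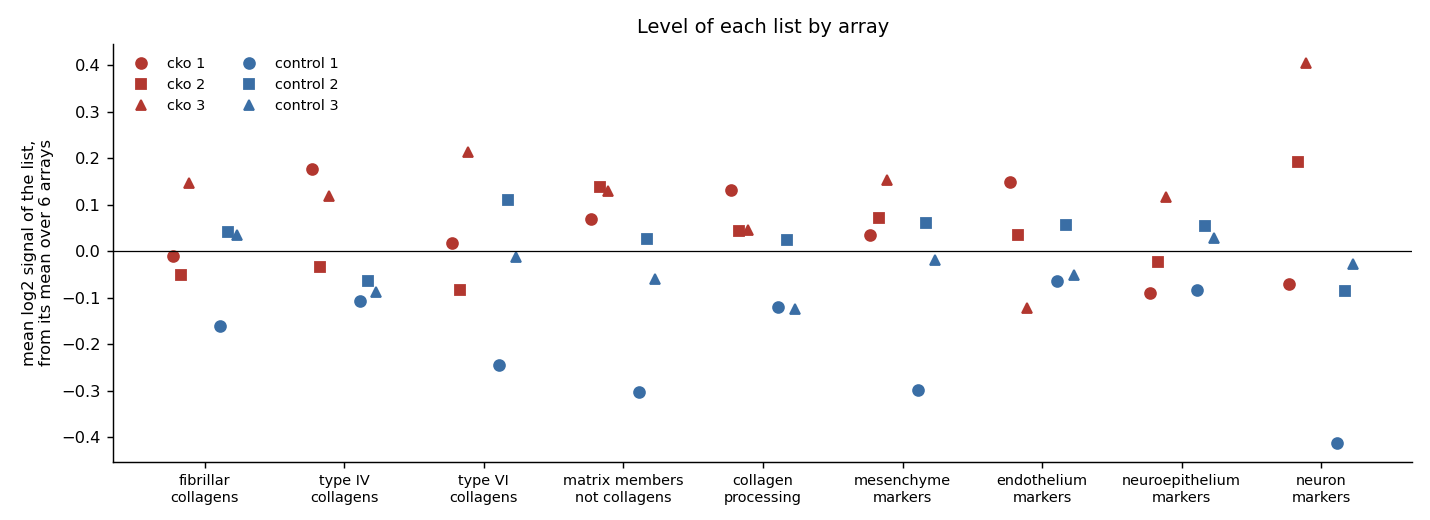
Mean log2 signal of each list on each array, as its distance from the mean of that list over the 6 arrays, with Ezh2 cko arrays left of control arrays in each list. Control replicate 1 is the lowest array for fibrillar, type IV and type VI collagens and for the matrix members that are not collagens. It is also the lowest for mesenchyme and neuron markers, but not for collagen processing, endothelium or neuroepithelium.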

How the data were processed

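Total RNA of dorsal midbrains was labelled with biotin and hybridised to Affymetrix A430 arrays, with 3 Ezh2 cko and 3 control samples at E10.5. The authors deposited log2 signals, 1 per probe set and array, and the submitters' processing notes name RMA, with no version given. Of 45101 probe sets, 64 manufacturer's control sets were left out and 45037 were tested. Genes were named from the platform annotation: 34945 probe sets have 1 symbol, 932 have several and 9160 have none here. No column was left unmapped. Depth has no counterpart on arrays, and their number limits the precision.

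Ezh2 cko minus control was fitted with lmFit and eBayes of limma 3.58.1 in R 4.3.3, with Benjamini-Hochberg adjustment over all 45037 probe sets, since no array test is named in the methods. The fit was tested on simulated data. Shares of all genes use the highest-mean probe set of each. The members and gene lists were chosen with earlier results of these data known. Named genes were the 10 highest and the 10 lowest differences, the 7 members that are not collagens, the major fibrillar and type IV chains, up to 3 genes of each further list with the largest absolute difference, and Ezh2, with all other members given by counts and ranges or singly in passing. Alternatives were the t-test of the methods, another variance prior, array weights, a filter on the dimmest 25%, 3 normalizations, the mean over probe sets, the replicate number as a block, removal of probe sets prone to cross-hybridisation, and removal of each array in turn.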

Additional observations from a re-analysis of the deposited data

How the results depend on the processing

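No member passed the adjusted p under any alternative, nor on all 6 arrays at an adjusted p under 0.1, and the lowest adjusted p of a member was 0.0617, for Col8a2 without Ezh2 cko replicate 1. At the threshold of the methods the count of members was 0, but it was 1, Col8a2, after cyclic loess and after a second quantile normalization, and 0 to 1 when each array was left out, the 1 being without Ezh2 cko replicate 1 or control replicate 3. The median difference of the members ran from 0.02 to 0.09 over the arrays left out, and 0 genes of the further matrix lists passed in any setting. Of 621 differences of 39 named genes under 16 alternatives, 616 kept their sign and 5 reversed. Over all 49 members, 32 kept their sign with each array left out in turn and 17 did not. Without control replicate 1 alone 7 changed sign, namely Col23a1, Col27a1, Col4a3, Col5a1, Col6a1, Col6a3 and Col6a4. With all probe sets of a gene averaged, Col5a1 was at -0.075, Col5a2 at -0.017 and Fn1 at 0.058. Leaving out each array in turn, Col5a1 ran from -0.024 (without control replicate 1) to 0.13, and Col5a2 from -0.11 (without Ezh2 cko replicate 3) to 0.15.

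Replicate numbers are shared between the groups, but the labels do not say what a number marks. Deviations of same-numbered arrays correlated at 0.06, -0.20 and 0.06, so the numbers were not taken as pairs. With the replicate number as a block, 0 members passed the adjusted p, 8 instead of 7 were higher at an unadjusted p under 0.05, and the median stayed at 0.03. The share of all genes at that unadjusted p was not counted with the block. Over all genes 40 passed the adjusted p with the block, and 17 to 33 when 1 array was left out.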
